A study of Homo sapiens with 6 samples.

Results

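Wide open sites that every library called were examined in human ventricular-like cardiomyocytes. Peaks from the 6 ATAC-seq lists were joined wherever they shared 1 bp or more, and a merged region was kept when it lay on chromosomes 1 to 22, held a peak of every library and was at least 2000 bp wide. Of 157560 merged regions, 27889 on these chromosomes were called in all 6 libraries, and 2070 of them (7.42%) reached that width. These 2070 wide sites are described here, and the 25819 narrower shared sites serve for comparison. They were chosen by merged width and by the presence of a peak in every library, so width, covered bases and peak numbers are described without a test. All cells came from the H9 human embryonic stem cell line, were differentiated with a ventricular cardiomyocyte kit and were dissociated with trypsin on day 15. The control group had 3 libraries and the ZNF436 knockdown group had 3, each from a differentiation of its own, per the labels. ZNF436 encodes a KRAB zinc finger protein. How the knockdown was made, and what the control cultures received, is not given in the sources used here.

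ATAC-seq reads where the Tn5 transposase can cut DNA, which it does most readily where nucleosomes are absent or loose. Most open sites span about the gap left by a nucleosome or a few of them. Wide open stretches are commonly found over promoters rich in CpG and over very active genes and their clustered enhancers. A peak list holds the called intervals and a score from the peak caller, with no read counts, and library depth is unknown. The 3 control lists held 50719, 53662 and 68342 peaks and the 3 knockdown lists held 115864, 102454 and 87871, with no overlap between the groups, so list length and group cannot be told apart.

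The promoters of 4 genes with a wide site at the start are printed here because the results below turn on them: the targeted gene, the widest promoter site that could be named outside the flanks of peak-free stretches, and 2 genes of the heart. They are RefSeq sequences of the build GRCh38.p14, each of 300 bases around a transcription start, 5′ to 3′ on the gene's strand. Capitals mark matches, on either strand, to the GC box (letters GGGCGG), the CCAAT box (letters as in its name), the TATA box (letters TATAAA), an element of GATA factors (letters AGATAA) or an element of TEAD factors (letters GGAATG). TGACGTCA and TGANTCA, read by CREB and AP-1 factors, were also searched and are not in these 5 windows.
ZNF436, first listed start: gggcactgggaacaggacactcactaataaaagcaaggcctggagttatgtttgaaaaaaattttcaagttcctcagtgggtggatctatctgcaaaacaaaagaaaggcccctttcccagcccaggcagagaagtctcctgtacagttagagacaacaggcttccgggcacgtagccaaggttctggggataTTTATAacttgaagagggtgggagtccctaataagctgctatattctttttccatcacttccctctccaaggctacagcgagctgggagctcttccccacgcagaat
ZNF436, second listed start: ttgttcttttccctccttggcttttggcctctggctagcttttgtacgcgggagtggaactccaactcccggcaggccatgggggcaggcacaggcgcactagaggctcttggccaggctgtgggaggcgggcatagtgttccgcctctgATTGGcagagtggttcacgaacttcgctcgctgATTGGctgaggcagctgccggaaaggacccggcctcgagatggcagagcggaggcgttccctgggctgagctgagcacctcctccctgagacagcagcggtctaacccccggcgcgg
FOS: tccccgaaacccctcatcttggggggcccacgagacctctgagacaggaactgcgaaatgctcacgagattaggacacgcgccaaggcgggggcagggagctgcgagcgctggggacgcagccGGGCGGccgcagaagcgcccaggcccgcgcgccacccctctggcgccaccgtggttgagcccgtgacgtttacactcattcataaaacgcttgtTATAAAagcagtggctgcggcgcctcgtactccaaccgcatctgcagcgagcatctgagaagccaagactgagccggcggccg
TNNT2: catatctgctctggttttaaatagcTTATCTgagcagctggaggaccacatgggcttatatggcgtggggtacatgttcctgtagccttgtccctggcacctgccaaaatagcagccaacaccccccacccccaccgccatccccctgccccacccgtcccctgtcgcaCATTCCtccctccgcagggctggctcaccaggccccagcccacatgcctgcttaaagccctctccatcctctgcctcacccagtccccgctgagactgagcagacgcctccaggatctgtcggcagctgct
HAND1: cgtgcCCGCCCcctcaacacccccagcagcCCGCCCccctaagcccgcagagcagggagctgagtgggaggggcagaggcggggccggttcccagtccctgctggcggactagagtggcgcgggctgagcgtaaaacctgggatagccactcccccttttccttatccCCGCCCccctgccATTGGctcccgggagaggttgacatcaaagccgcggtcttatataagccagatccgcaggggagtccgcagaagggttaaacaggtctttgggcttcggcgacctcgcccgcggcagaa
The listed starts of ZNF436 differ in composition: the first window holds 4 CpG and a TATA box match, the second holds 18 CpG and 2 CCAAT box matches. FOS holds 30 CpG with a GC box and a TATA box match, HAND1 holds 21 CpG with 3 GC box matches and a CCAAT box match, and TNNT2 holds 8 CpG with a GATA and a TEAD element match.

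Over more genes, the median CpG number was higher in promoters of genes with a wide site at the start, and the ranges overlapped widely. Every listed promoter of a gene was counted, while the wide site was looked for at a single start per gene. Of 65 named genes with a wide site at the start, 48 had an entry in the RefSeq promoter table, with 71 promoters. Their median was 24 CpG in 300 bases (quartiles 16.5 and 34), against 14 over all 35116 promoters of the table (4 and 28) and 11 over 61 promoters of listed genes with no wide site at the start (5 and 32). The GC box was in 63.4% of the 71 promoters, in 45.0% of all promoters and in 49.2% of the 61. In the same order, the CCAAT box was in 33.8%, 34.6% and 29.5%, the TATA box in 15.5%, 11.5% and 9.84%, and the TEAD element in 11.3%, 14.0% and 11.5%. The GATA element was in 5.63%, 10.3% and 18.0%, TGANTCA in 4.23%, 7.71% and 6.56%, and TGACGTCA in 2.82%, 1.85% and 4.92%. The named genes were partly picked for width, so these shares describe those genes only. A match is a run of letters, and no binding was measured.

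The start of ZNF436, the targeted gene, was itself a wide site, and it checks the labels. The site at chr1:23694481-23696638 (hg19, 2158 bp) held 1672, 1769 and 1847 bp of peaks in control replicates 1, 2 and 3, and 216, 409 and 219 bp in knockdown replicates 1, 2 and 3. Control libraries had 2 peaks there and knockdown libraries 1. All 3 knockdown libraries lay far below all 3 control libraries. Each library's sites were ranked by the highest peak score inside them, and the rank is given as a percentile among the 27889 shared sites, where 100 is the strongest. The ZNF436 site ranked at 95.3, 94.2 and 96.8 in control and at 4.35, 8.14 and 14.4 in knockdown. It fell by 86.4 percentile points (SE 8.43, limma adjusted p = 0.0010), the deepest fall among the wide sites. It was also called in each of the 13 other settings that gave it a value.

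Most wide sites were only moderately wide, and the very wide ones lay mostly beside large stretches of the genome with no peaks. The median merged width was 2371.5 bp, the middle range of sites ran from 2152 to 2806.5 bp (quartiles) and the widest reached 24574 bp. Of the 2070 sites, 380 were at least 3000 bp wide, 70 at least 5000 bp and 19 at least 10000 bp. On each chromosome the longest interval free of peaks in all libraries was located, 3 to 21.05 Mb long, and sites within 3 Mb of it are called flanking. On most chromosomes of hg19 such stretches hold the unsequenced centromere or, on acrocentric chromosomes, the short arm. No filter on repeated sequence was applied here, and peak lists do not tell how uniquely reads mapped beside them. Flanking sites numbered 219 and the other wide sites 1851. Among shared sites, 14.7% of the flanking ones were wide against 7.01% of the others. Flanking sites made up 10.6% of all wide sites, but 49 of the 70 (70%) of at least 5000 bp and 9 of the 10 widest. Their median width was 3099 bp against 2343 bp for the other sites.

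The threshold cut through a continuous range of widths. At 2000 bp, just inside, stood the sites starting at chr4:16227397, chr18:32556536 and chr7:55639220, whose peaks covered means of 1085, 547.3 and 1066 bp in control and 1790, 1636 and 1711 bp in knockdown. At 1999 bp, just outside, stood those starting at chr2:27434164, chr10:112326394 and chr12:120667773, with 1417, 1605 and 958.7 bp in control and 1867, 1732 and 1535 bp in knockdown. All 6 had more cover in knockdown, and the merged outline was longer than either mean at each.

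Each knockdown library covered more of the wide sites than each control library. The median number of bases under a library's own peaks was 1575, 1557.5 and 1699.5 bp in control replicates 1, 2 and 3 and 2090.5, 2040 and 1984 bp in knockdown replicates 1, 2 and 3. The groups did not overlap, with means of 1611 ± 77.4 bp for control and 2038 ± 53.3 bp for knockdown (SD, n = 3 per group), a ratio of 1.27 ± 0.07. Narrower shared sites had a larger ratio, with 442 ± 43.3 bp in control and 652 ± 33.0 bp in knockdown, or 1.48 ± 0.16. All 3 knockdown values exceeded all 3 control values at 1142 wide sites (55.2%), against 47.4% of all shared sites, and all were below at 48 wide sites (2.32%), against 0.749%. With every list shortened to its 50719 strongest peaks, the ratio over the sites that were still wide was 1.25. The width minimum itself favours sites that are broader in the group with more cover. Control peaks alone made an outline of at least 2000 bp at 695 of the 2070 sites, and the other 1375 reached that width only with knockdown peaks. Among the 695, all knockdown values were higher at 214 (30.8%) and the median ratio of single sites was 1.11, and among the 1375 they were higher at 928 (67.5%) with a median ratio of 1.39. Choosing by the control outline in turn favours sites that are broad in control.

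Seen 1 library at a time, few of these sites were wide in every library. A library's peaks covered at least 2000 bp at 22.5%, 22.6% and 28.6% of the 2070 sites in control and at 60.8%, 55.0% and 48.7% in knockdown. All 6 libraries did so at 278 sites (13.4%), and no library did at 471 (22.8%), where only the merged outline reached the threshold. All 3 knockdown libraries and no control library did so at 192 sites, and the reverse held at 2 sites, both flanking.

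**Figure D1:**
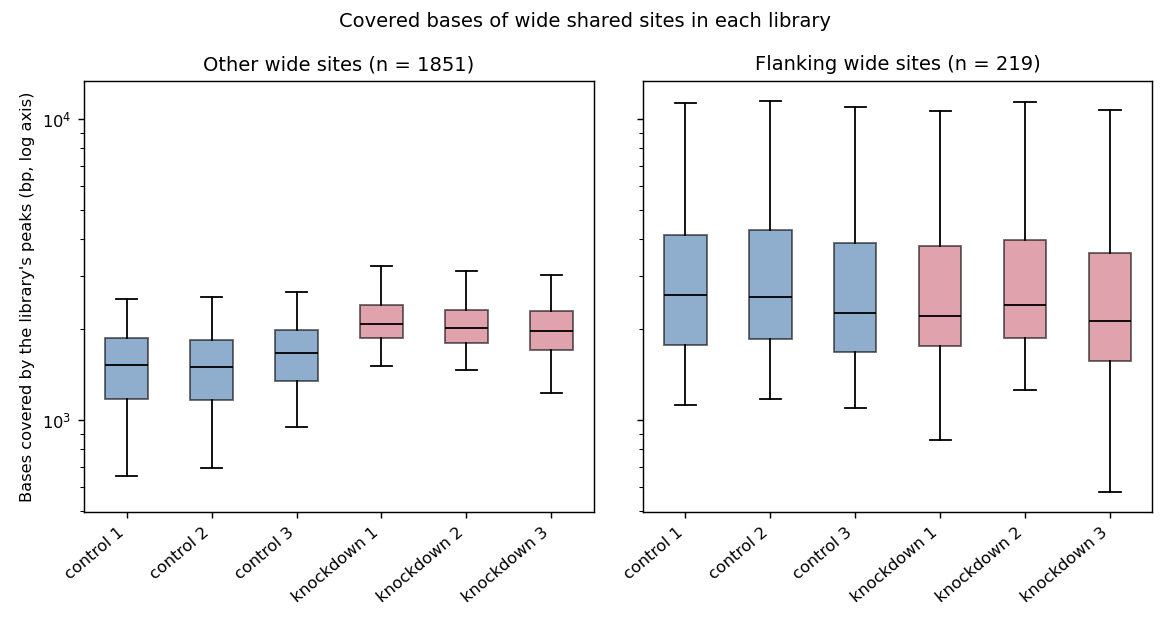
Bases covered by each library's own peaks (bp, log axis) at the 1851 other wide sites and the 219 flanking wide sites. Boxes show the quartiles with the median as a line, and whiskers run from the 5th to the 95th percentile of sites. Outside the flanks the medians are 1523, 1501 and 1666 bp in control and 2082, 2022 and 1976 bp in knockdown, while the flanking medians of the groups overlap.

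Covered bases in flanking sites did not separate the groups. Their medians were 2602, 2572 and 2266 bp in control and 2221, 2405 and 2138 bp in knockdown, a ratio of 0.91 ± 0.09. The highest knockdown library lay above the lowest control library. At the other 1851 sites, control gave 1563 ± 89.6 bp and knockdown 2027 ± 53.2 bp (SD over 3 libraries), a ratio of 1.30 ± 0.08. All knockdown libraries covered more than all control libraries at 32 of 219 flanking sites (14.6%) and at 1110 of 1851 other sites (60.0%). They covered less at 34 flanking sites (15.5%) and at 14 other sites (0.756%). The median of the ratios of single sites was 0.96 in the flanks and 1.32 elsewhere. The difference between these kinds of site was not tested, since width entered their choice.

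Wide sites were broken into fewer peaks in knockdown. The mean number of peaks per site was 1.94, 1.99 and 2.09 in control and 1.63, 1.68 and 1.79 in knockdown, with no overlap. The share of sites holding 1 peak, whatever its length, was 34.4 ± 1.95% in control and 52.4 ± 5.30% in knockdown (SD over 3 libraries). All knockdown libraries had fewer peaks than all control libraries at 139 sites (6.71%, against 1.06% of all shared sites) and more at 13 (0.628%, against 0.154%). At 86 sites every knockdown library had 1 peak where every control library had several, and at 5 sites the reverse was seen. These counts were not taken over all shared sites, so they describe the wide sites only. Only 183 sites had 1 peak in every library, and 291 had several in every library. Flanking sites had 2.46 ± 0.37 peaks in control and 2.70 ± 0.13 in knockdown, and here the groups overlapped.

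The 5 sites with the most peaks, by the mean over libraries, were the flanking sites at chr15:20544068-20564613, chr21:10787622-10802361, chr2:91798257-91809813 and chr21:10757043-10766751, and 1 other site at chr1:16947080-16954436. At the first of these, the peaks numbered 10, 10 and 13 in control and 17, 11 and 19 in knockdown. Covered bases there were 19056, 18477 and 17098 bp in control and 14742, 17135 and 10289 bp in knockdown, so that replicate 2 of the knockdown just exceeded replicate 3 of the control. At the site on chromosome 1, the numbers were 6, 6 and 6 in control and 8, 8 and 5 in knockdown, with covered bases of 5958, 4997 and 5945 against 4653, 5358 and 4084 bp.

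Wide sites were among the stronger shared sites in every library, and their rank was slightly lower in knockdown. Rank is not independent of the choice by width, since width and score come from the same peak calls. A site takes the highest score of its peaks, and wide sites held more peaks than narrower ones in every library. How much this added to their rank was not tested. Nor was the part that their fewer peaks in knockdown had in the rank difference. The median rank percentile of the 2070 sites was 79.5, 80.2 and 76.4 in control and 73.0, 75.2 and 75.1 in knockdown, against 47.8 ± 1.13 and 47.9 ± 0.67 for narrower sites (SD, n = 3 each). Limma, fitted over all 27889 shared sites, called 100 wide sites at an adjusted p threshold of 0.05 (4.83%, against 2.69% of all shared sites). Of these, 4 rose (0.193%, against 1.08%) and 96 fell (4.64%, against 1.61%). At an unadjusted limma p of 0.05 the number was 419 of the 2070. The same count was not taken over all shared sites, so no excess is read from it. The median difference, knockdown minus control, was -2.71 percentile points over wide sites and -0.17 over all shared sites. All 3 knockdown ranks lay below all 3 control ranks at 497 wide sites (24.0%, against 12.4%) and above at 86 (4.15%, against 11.3%). The number of calls depended on single libraries. Without control replicate 1 or 2, 1 wide site was called, the ZNF436 site, while without control replicate 3 the calls were 13 rises and 162 falls. Without knockdown replicate 1, 2 or 3 there were 0 rises and 21, 38 or 33 falls. The median difference over wide sites stayed between -2.343 and -3.235 points when 1 library was left out.

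Percentiles within each whole deposited list gave the opposite sign. The median percentile of wide sites was 88.1, 89.1 and 89.9 in control and 93.3, 93.0 and 91.8 in knockdown. The knockdown lists were longer, and ranks from lists of different length show no change by themselves. All shared sites went from 72.6 ± 4.14 to 85.0 ± 1.94 on this scale (SD, n = 3 each). All knockdown percentiles were higher at 764 wide sites (36.9%, against 45.6% of all shared sites) and lower at 134 (6.47%, against 2.13%). Limma on the list percentile called 98 rises (4.73%, against 13.1% of all shared sites) and 33 falls (1.59%, against 0.534%) among wide sites. The median shift was 2.38 points over wide sites and 9.48 over all shared sites. On log2 scores scaled to the median over shared sites it called 3 rises (0.145%, against 2%) and 515 falls (24.9%, against 8.53%). The direction of the rank differences is therefore relative to the other shared sites.

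**Figure D2:**
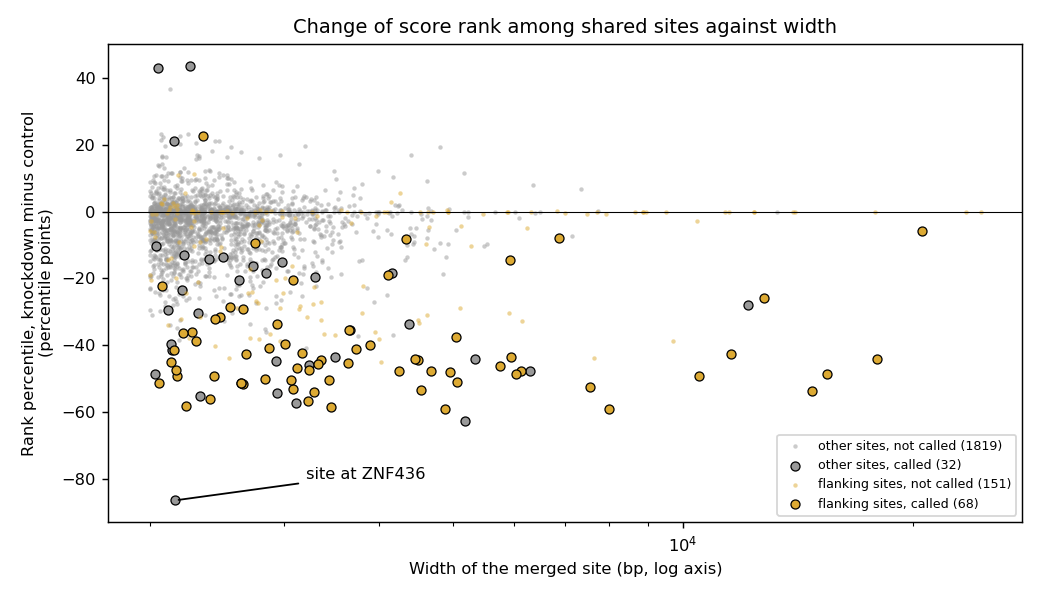
Difference in rank percentile among shared sites (knockdown minus control, percentile points) against merged width (bp, log axis) for all 2070 wide sites. Outlined points passed the limma threshold of 0.05 and fill colour separates the 219 flanking sites from the other 1851. The ZNF436 site lies lowest at -86.4, and 67 of the 96 called falls are flanking sites.

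Falls of rank were concentrated in the flanks. Of 219 flanking wide sites, 67 fell and 1 rose (31.1% called), and of the other 1851, 29 fell and 3 rose (1.73% called). Over all shared sites 2.69% were called. Falls alone made up 30.6% of flanking and 1.57% of other wide sites, against 1.61% of all shared sites. That last share includes the flanks, where 12.5% of the narrower sites were also called as falls. It is therefore not a like background for the wide sites outside the flanks. Narrower flanking sites were called at 13.6%. The median difference was -18.9 percentile points in flanking wide sites and -2.44 in the others. Flanking sites had median ranks of 78.2, 82.7 and 71.8 in control and 49.6, 61.4 and 53.1 in knockdown, with no overlap. For the other sites control gave 79.2 ± 1.27 and knockdown 74.7 ± 0.69 (SD over 3 libraries). When the 26399 shared sites outside the flanks were ranked and fitted alone, 20 of the 1851 wide sites fell and 1 rose. Over all 26399 of them, 134 fell and 114 rose. The share of falls was thus larger, and that of rises smaller, among the wide sites.

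Chromosome 21 carried the densest group of wide sites. There 70 of 397 shared sites (17.6%) were wide, and 48 of the 70 were flanking. Outside the flanks the share on chromosome 21 was 7.69%. Chromosome 4 followed with 10.4%, then chromosome 14 with 9.18% and chromosome 17 with 9.09%, and chromosome 20 had the lowest share with 4.83%. Of 2048 neighbouring pairs of wide sites, 79 (3.86%) were within 1000 bp of each other, 184 (8.98%) within 10000 bp and 451 (22%) within 100000 bp, so most stood farther apart.

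The 10 widest sites split into those at the top of the ranking in every library and those that fell. The widest, at chr16:46385802-46410375 (24574 bp), was covered over 23910, 23971 and 23116 bp in control and 23222, 24430 and 23494 bp in knockdown, and ranked at 99.9 in all 6 libraries. The second, at chr10:42373777-42397298 (23522 bp), ranked at 100 when rounded in all 6 libraries, and was 1 unbroken peak in 4 of them. The sites at chr17:22244611-22262477, chr4:49104027-49118063, chr4:49646166-49660101 and chr2:133018716-133031986 also ranked above 99 in every library. None of these 6 sites was called for a change of rank, whose ceiling is 100. The last of these, 13271 bp wide, was the only site of the 10 that was not flanking. Whether chromatin is open over the whole length of such sites cannot be told from peak lists and was not tested.

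The other 4 of the 10 widest all fell. The site at chr21:10708852-10726818 ranked at 87.5, 86.0 and 68.4 in control and 27.1, 43.8 and 39.1 in knockdown, and fell by 44.0 points (SE 8.59, limma adjusted p = 0.0184). Its covered bases overlapped between the groups, at 17733, 17437 and 15687 bp in control and 16844, 17247 and 14769 bp in knockdown. The neighbouring sites chr21:11117881-11133306 and chr21:10787622-10802361 fell by 48.6 (SE 9.69, adjusted p = 0.0198) and by 53.7 points (SE 9.34, adjusted p = 0.0132). The site at chr15:20544068-20564613 fell by 5.86 points (SE 1.46, adjusted p = 0.0459). The ratio of covered bases at these 4 flanking sites, knockdown over control, was 0.961, 0.919, 0.789 and 0.772. Without control replicate 1 or 2 none of the 4 was called.

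After ZNF436, the 4 deepest falls were also outside named genes. The site at chr1:2619171-2624347 (5177 bp), which was not flanking, ranked at 79.5, 94.6 and 68.4 in control and 15.6, 24.1 and 14.4 in knockdown, and fell by 62.8 points (SE 9.52, limma adjusted p = 0.0099). The flanking sites chr16:33942298-33947172, chr21:11091529-11099534 and chr21:10802474-10805932 fell by 59.1, 59.0 and 58.6 points (adjusted p = 0.0099, 0.0119 and 0.0171). In each of these sites every knockdown rank was below every control rank. No gene is named at them here.

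Genes were placed by hand from general knowledge of hg19, because no annotation of that build was used here. Of 117 genes placed, 89 had a length within 5% of the RefSeq gene of the same name in GRCh38.p14. A site is at a gene's start when it lies within 1 kb of it, and it may touch other genes too. Of 78 listed genes, 55 had a shared site of some width at the start and 26 had a wide one. The lists are given with counts and medians only.

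**Figure D3:**
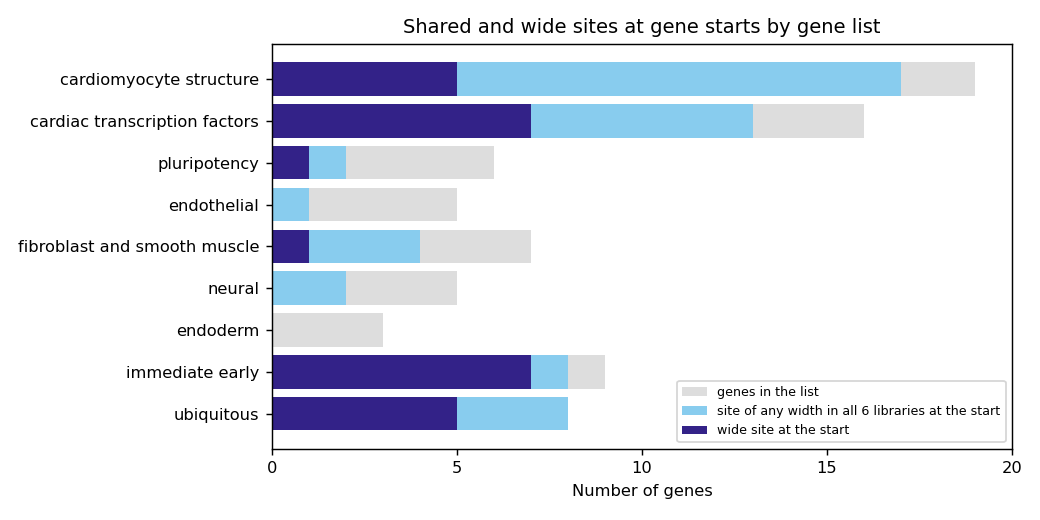
Number of genes in each list (grey), with a site called in all 6 libraries at the start (light blue) and with a wide one at the start (dark blue). Immediate early genes have 7 wide starts of 9 and cardiac transcription factors 7 of 16, while the endothelial, neural and endoderm lists have none.

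Of 19 genes for cardiomyocyte structure, 17 had a shared site at the start and 5 a wide one: TNNT2, MYH6, MYL4, ACTC1 and ATP2A2. All 5 were wide only with knockdown peaks, since the outline of control peaks was under 2000 bp at each. Choice by width thus favoured more cover in knockdown at them, and how much it added was not tested. The groups did not overlap at any of the 5, with more covered bases in knockdown. The same held at 67.5% of the 1375 wide sites whose control outline was also under the minimum. It held at 55.2% of all wide sites and 47.4% of all shared sites. The median ratio of the 5 was 1.93, against 1.39 over those 1375 sites and 1.37 over all shared sites. At TNNT2 (cardiac troponin T, chr1:201345181-201347707), covered bases were 790, 1309 and 1467 bp in control and 2166, 2031 and 2248 bp in knockdown. At MYH6 (the alpha myosin heavy chain, chr14:23876031-23878331) they were 482, 574 and 1050 against 2224, 1538 and 1517 bp. MYL4, a myosin light chain of atrial and embryonic muscle, had 958, 985 and 1332 against 2388, 1996 and 1939 bp at chr17:45285793-45288350. ACTC1 (cardiac alpha-actin, chr15:35087051-35089545) had 736, 1166 and 1519 against 2146, 2234 and 2469 bp. ATP2A2, the calcium pump of the sarcoplasmic reticulum, differed least, with 1597, 1597 and 1538 against 2091, 2062 and 1704 bp at chr12:110718140-110720240.

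None of these 5 changed in rank by the limma test. MYL4 came nearest, with ranks of 70.8, 55.0 and 87.6 in control and 90.9, 89.1 and 91.3 in knockdown, a difference of 19.3 points (SE 6.11, adjusted p = 0.102). At MYH6 the ranks were 69.0, 58.5 and 62.4 against 78.4, 72.3 and 86.1 (15.6 points, SE 6.21, adjusted p = 0.186). ATP2A2 went the other way, from 69.0, 69.3 and 57.4 to 49.6, 42.0 and 34.1 (-23.4 points, SE 8.71, adjusted p = 0.16). TNNI1, TNNI3, TNNC1, MYH7, MYL3, MYL7, ACTN2, TTN, NPPA, NPPB, RYR2 and SLC8A1 had shared starts of under 2000 bp, and MYL2 and PLN had no shared site at the start.

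Wide sites also lay beyond the starts of muscle genes. A site of 6360 bp within 10 kb of MYH6, at chr14:23844283-23850642, was covered over 1707, 3241 and 4556 bp in control and 6131, 5976 and 5432 bp in knockdown. A site of 4807 bp within 10 kb of ACTC1, at chr15:35080968-35085774, was covered over 266, 859 and 1909 bp in control and 4061, 3893 and 3794 bp in knockdown, a ratio of 3.87. In both, the groups did not overlap and control replicate 3 had the widest cover of the control libraries. At chr7:44185203-44187219, within 10 kb of MYL7, the order was different: 460, 533 and 1655 bp in control and 418, 858 and 555 bp in knockdown.

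Cardiac transcription factors had wide starts at 7 of 16 genes, with shared ones at 13. These were NKX2-5, GATA6, TBX2, TBX3, HAND1, MEIS1 and MEIS2, all DNA-binding regulators of the developing heart. The outline of control peaks was under 2000 bp at all 7, so choice by width favoured more cover in knockdown here too. At 6 of the 7 the knockdown libraries covered more than all control libraries, against 67.5% of the wide sites with such a control outline and 47.4% of all shared sites. The median ratio was 1.66, against 1.39 and 1.37. At NKX2-5, a homeobox factor of early heart cells (chr5:172661630-172663959), covered bases were 581, 295 and 945 bp in control and 1664, 985 and 2073 bp in knockdown. At HAND1 (a helix-loop-helix factor, chr5:153856718-153859289) they were 996, 1406 and 1656 against 2204, 2036 and 2481 bp. The T-box repressors TBX2 (chr17:59476199-59478331) and TBX3 (chr12:115120760-115123183) had 735, 543 and 999 against 1755, 1862 and 1711 bp, and 779, 1104 and 1080 against 1999, 2158 and 1820 bp. GATA6, a zinc finger factor whose site at chr18:19749019-19751300 counts as flanking, had 1574, 1182 and 1369 against 2082, 1969 and 1917 bp. MEIS2 had 1683, 1548 and 2140 against 2842, 2264 and 2671 bp at chr15:37392125-37395151. MEIS1 was the exception, with 1632, 1639 and 1293 against 1382, 1674 and 1686 bp at chr2:66659722-66661766, where the groups overlapped.

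None of these 7 starts was called for a change of rank, and differences ran in both directions. The largest in size were 11.4 points at GATA6 (SE 5.08, limma adjusted p = 0.24) and -11.5 at MEIS1 (SE 6.25, adjusted p = 0.335). Near HAND2, another helix-loop-helix factor, a wide site within 10 kb of the gene did rise. At chr4:174438719-174440872 the rank was 64.9, 64.4 and 60.0 in control and 85.9, 86.3 and 80.9 in knockdown, a rise of 21.2 points (SE 5.30, adjusted p = 0.0459). Its covered bases were 702, 569 and 1178 bp in control and 1797, 1755 and 1687 bp in knockdown. The site next to it, chr4:174440939-174445561, was covered over 1746, 1628 and 2385 against 3006, 3526 and 4066 bp, but was not called for rank (9.03 points, SE 8.90, adjusted p = 0.633). The rise near HAND2 was called in 3 of 14 other settings, and its adjusted p reached 0.248 when a library was left out.

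**Figure D4:**
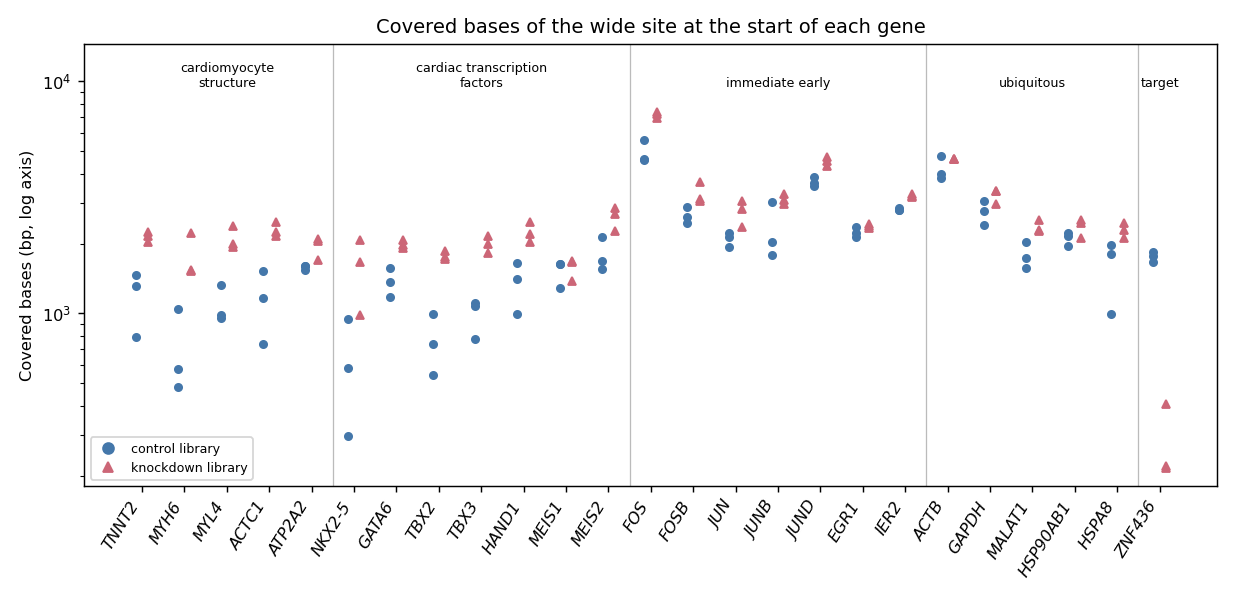
Covered bases (bp, log axis) of the wide site at gene starts, with circles for the 3 control libraries and triangles for the 3 knockdown libraries. Genes are those of the cardiomyocyte structure, cardiac transcription factor, immediate early and ubiquitous lists, with ZNF436 at the right. LIN28A and COL1A1 are not drawn. All triangles lie above all circles at the 5 structure genes and at 6 of 7 transcription factors, and below them at ZNF436.

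Immediate early genes, which cells transcribe within minutes of a stimulus, had the highest share of wide starts of any list, at 7 of 9: FOS, FOSB, JUN, JUNB, JUND, EGR1 and IER2. The share of starts that were wide was not tested between lists. FOS, a subunit of the AP-1 factor whose promoter is printed above, had the widest start of the list, 7743 bp at chr14:75743411-75751153. Its covered bases were 4581, 4640 and 5619 bp in control and 6964, 7206 and 7389 bp in knockdown, and its peaks numbered 5, 6 and 5 against 4, 3 and 2. The ranks overlapped, at 88.1, 78.8 and 81.4 against 85.3, 84.7 and 79.2. JUND, a partner of FOS, had 3530, 3658 and 3870 against 4717, 4336 and 4520 bp at chr19:18388075-18393615, with a rank difference of -9.74 (SE 2.86, limma adjusted p = 0.0805). EGR1, a zinc finger factor, overlapped between the groups, with 2130, 2231 and 2368 against 2335, 2421 and 2376 bp at chr5:137799480-137801925. At 5 of the 7 the knockdown libraries covered more than all control libraries, EGR1 and JUNB being the exceptions, against 55.2% of wide and 47.4% of all shared sites. The median ratio of 1.24 was below those over wide sites (1.29) and all shared sites (1.37). Control peaks alone made a wide outline at 5 of the 7, all but JUN and JUND. No member was called for rank.

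Genes active in nearly all cells had wide starts at 5 of 8, and at 3 of the 5 the covered bases overlapped between the groups. ACTB (cytoplasmic beta-actin, chr7:5567199-5571996) was covered over 3849, 3981 and 4780 bp in control and 4630, 4645 and 4621 bp in knockdown, and GAPDH (a glycolytic enzyme, chr12:6641225-6644797) over 2761, 2396 and 3060 against 3374, 3375 and 2949 bp. At both the groups overlapped, as at the chaperone HSP90AB1. MALAT1, a nuclear long noncoding RNA, and the chaperone HSPA8 did not overlap, with more cover in knockdown. The median ratio of the 5 was 1.18, and control peaks alone made a wide outline at ACTB and GAPDH. None was called for rank. The medians of the lists, 1.93, 1.66, 1.24 and 1.18, rest on 5 to 7 sites each with unequal shares of control outlines, and no test compares them.

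Lists for other cell types had few shared sites at the start and 2 wide ones. LIN28A, an RNA-binding protein of stem cells, was the only 1 of 6 pluripotency genes with a wide start, and SOX2 was the only other one with a shared site there. LIN28A was covered over 1539, 729 and 940 bp in control and 1781, 1796 and 1220 bp in knockdown, which overlapped. COL1A1, a collagen of fibroblasts, was the only 1 of 7 fibroblast and smooth muscle genes, of which 4 had a shared start, with 1838, 1162 and 1603 against 1500, 1918 and 1480 bp. Of the 5 endothelial, 5 neural and 3 endoderm genes none was wide at the start, and 1, 2 and 0 of them had a shared site there. The 4 HOX clusters, searched over their whole length, held no wide site, and 3 of them held a narrower shared site. PECAM1 was not placed, and SOX17 was counted with the endothelial list only.

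Some of the widest sites outside the flanks lay at the starts of genes that were matched after the sites were known. After FOS the widest of these was at BRD2, a bromodomain protein that binds acetylated histones, with 7151 bp at chr6:32935055-32942205. Its covered bases were 2662, 3583 and 4197 bp in control and 4948, 6058 and 5360 bp in knockdown. SIN3A, the scaffold of a histone deacetylase complex, had 6400 bp at chr15:75742440-75748839, with 5272, 4861 and 5347 against 5933, 6352 and 6177 bp and ranks of at least 97.5 in all libraries. PCDH7, a protocadherin of the cell surface, had 6101 bp at chr4:30717819-30723919, with 3050, 2608 and 4058 against 5712, 4627 and 5345 bp. HES7, a repressor of the segmentation clock, had 6018 bp at chr17:8021040-8027057, with 2284, 2718 and 3965 against 5127, 4814 and 3886 bp, where 1 knockdown library fell below the highest control library. ACTG1, the other cytoplasmic actin, had 4852 bp at chr17:79478037-79482888, with 2247, 2621 and 2619 against 4221, 4553 and 3802 bp. PTMA, a small acidic nuclear protein, had 5162 bp at chr2:232570818-232575979, with 4099, 4157 and 4257 against 5110, 4607 and 4283 bp. COL2A1, a collagen of cartilage, had 4711 bp at chr12:48394776-48399486, with 3929, 3907 and 2766 against 4711, 4246 and 4309 bp. FLNC, a filamin of striated muscle, had 4623 bp at chr7:128469444-128474066, with 3171, 3638 and 3220 against 3905, 4093 and 3713 bp. None of these was called for rank.

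Called falls of rank made up 1.57% of the wide sites outside the flanks, against 1.61% of all shared sites, a share that includes the flanks. In the fit of sites outside the flanks alone, 20 of 1851 wide sites fell, against 134 of all 26399 shared sites. Of the 29 called falls outside the flanks, a further 10 lay at gene starts that could be named, also after the sites were known. The deepest was at CRABP2, a carrier of retinoic acid (chr1:156674775-156676910), with ranks of 72.4, 78.8 and 54.7 in control and 19.4, 28.0 and 34.1 in knockdown. It fell by 41.5 points (SE 9.67, limma adjusted p = 0.0379). SKIDA1 (chr10:21813721-21815830) fell by 29.4 points (SE 7.05, adjusted p = 0.0412). FOXD1, a forkhead factor (chr5:72742717-72744917), fell by 23.5 points from 79.5, 88.5 and 80.2 to 56.2, 62.7 and 58.8 (adjusted p = 0.0477). CORO1C, an actin-binding coronin, fell by 20.3 points (adjusted p = 0.0427), and GAS1, a membrane protein of growth arrest, by 16.3 points (adjusted p = 0.0382). ESRRA, a nuclear receptor of energy metabolism, fell by 15.2 points (adjusted p = 0.0474). MMP16, a membrane-bound metalloproteinase, fell by 14.3 points (adjusted p = 0.0131), from ranks of 96.1, 96.8 and 95.4 to 77.6, 83.5 and 84.1. SRSF2, a splicing factor, fell by 13.5 points (adjusted p = 0.0347), FBN2, a fibrillin of the matrix, by 12.9 (adjusted p = 0.0357) and P4HA1, a collagen prolyl hydroxylase, by 10.2 (adjusted p = 0.0391). None of the 10 was called without control replicate 1 or without control replicate 2. CORO1C and P4HA1 were called in 3 of 14 other settings, and CORO1C and SKIDA1 lost the call whichever library was left out, with adjusted p of at least 0.068 and 0.0559. MMP16 was called in 11 of 14.

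At these 10 starts a lower rank did not go with fewer covered bases. All 10 had a higher mean of covered bases in knockdown, with ratios between 1.02 at MMP16 and 2.11 at FOXD1. The same held at 1768 of the 1851 wide sites outside the flanks and at 25831 of the 27889 shared sites, so it does not set these 10 apart. CRABP2 was covered over 1557, 1242 and 1051 bp in control and 2000, 1547 and 1575 bp in knockdown, which overlap. FOXD1 had 933, 387 and 650 against 2131, 1312 and 715 bp, which overlap as well. Only the ZNF436 start, among the named starts with a called fall, had less cover in all knockdown libraries.

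The 4 called rises were a site at chr3:187870478-187872735, the starts of PABPC4 and YARS2, and the site near HAND2. The first ranked at 17.7, 36.5 and 26.9 in control and 70.9, 71.2 and 70.0 in knockdown, a rise of 43.7 points (SE 9.03, limma adjusted p = 0.0237), and no gene is named at it here. Its covered bases were 730, 1077 and 1114 bp in control and 2225, 1699 and 2098 bp in knockdown. PABPC4, which binds poly(A) tails (chr1:40039778-40041827), ranked at 27.3, 18.6 and 57.4 against 80.6, 71.2 and 80.1, a rise of 42.9 points (SE 10.1, adjusted p = 0.0387). Its covered bases overlapped, with 331, 454 and 1674 against 1602, 1948 and 1194 bp. YARS2, the mitochondrial tyrosyl-tRNA synthetase, had a flanking start at chr12:32907627-32909976 that ranked at 62.7, 64.4 and 57.4 against 81.3, 84.7 and 86.7, a rise of 22.7 points (SE 5.49, adjusted p = 0.0421). No rise was called without control replicate 1 or 2, or without any of the knockdown replicates.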

How the data were processed

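The data were 6 deposited peak lists from ATAC-seq of day-15 cells, 3 control and 3 ZNF436 knockdown libraries. The submitters' processing notes name hg19, Bowtie2 2.4.5 and bedtools 2.30.0, with no role or order. Peak names carry MACS and 1 library's name, per the files, which points to calling by library. The caller's version and threshold, any Tn5 shift and any filter on duplicates were not named in any label or header. The deposited score of each peak is the authors' integer value, with a lowest value of 20 to 25 in each list, and was used for ranks alone. The files hold no read counts, so depth and its precision are unknown.

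The rank percentile of each site's highest peak score among 27889 shared sites was compared by limma 3.58.1 (trended, robust variance; R 4.3.3), knockdown minus control, with Benjamini-Hochberg adjustment over all of them. On simulated ranks of 27889 sites, the share called by limma was 0% for scores changed 2-fold, 30% for 4-fold and 0% for unchanged sites. The simulated spread was a single value for all sites and included score differences between whole libraries, which ranks remove. These shares therefore do not measure the power of the fit on the real scores. Covered bases, peak numbers and list percentiles were described without a test, with means and SDs over 3 libraries. All else used Python 3.11.15, pandas 2.3.3 and numpy 2.4.6.

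The members and gene lists were chosen with earlier results of these data known. Sites named are the 10 widest, up to 5 largest called rises and falls with groups that do not overlap, the 5 with most peaks, the 3 on each side of the width threshold, and those at listed genes. The flanks, the starts of genes beyond the lists, the split by control outline and the fit outside the flanks were chosen after seeing the data. Alternatives covered the width minimum, merging, equal lists, other score scales, the replicate block and leaving out each library.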

Additional observations from a re-analysis of the deposited data

How the results depend on the processing

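The number of wide sites, 2070, became 4995 at 1500 bp or more, 380 at 3000 bp or more, 278 where every library had to cover 2000 bp and 709 when merged from control peaks only. Leaving out 1 library gave 1656 to 2022. The covered-base ratio of 1.27 was 1.14 from the first to the last covered base and 1.25 to 1.30 without 1 library. Split after seeing the data, it was 1.11 over the 695 sites with a control outline of 2000 bp or more and 1.39 over the others. The ratio of peak numbers, 0.849, was 0.703 in lists of equal length and 0.827 to 0.867 without 1 library. Rises and falls, 4 and 96 by the limma fit, were 9 and 152 on normal scores, 3 and 515 on log2 scores, 98 and 33 on list percentiles, 4 and 60 in lists of equal length, 0 and 17 without trend and robust variance, and 1 and 20 outside the flanks. They were 14 and 138 over sites of 1500 bp or more and 0 and 54 over those of 3000 bp or more. Without 1 library they ran from 0 to 13 rises and from 1 to 162 falls. With the replicate block there were 2 rises and 70 falls, and same-numbered libraries correlated at 0.03, 0.04 and 0.11, so the numbers were not taken to pair them. The causes of these differences were not tested. Of 554 values of 41 named and called sites, 284 kept their call, 270 kept the direction only and 0 reversed. Depth, unknown here, limits every width.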

Other observations

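Wide sites of chromosome X, outside the autosomal set above, were scarcer. Of 777 shared sites there, 37 (4.76%) were at least 2000 bp wide, and the widest had 4158 bp. Their median covered bases were 1305 ± 133 bp for control and 1855 ± 88.7 bp for knockdown (SD over 3 libraries). All knockdown libraries covered more than all control libraries at 20 of the 37 (54.1%, against 55.2% of autosomal wide sites and 47.4% of autosomal shared sites), and less at 0.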
